A study of Mus musculus with 24 samples.

Results

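The genes described here encode the main apolipoproteins of the mouse liver and a pair of proteins that act on the particles they form. They are Apoa1, Apoa2, Apoa4, Apoa5, Apob, Apoc2, Apoc3, Apoe, Mttp and Lcat, 10 of the 41388 genes with a deposited count. They were picked by gene symbol for their known roles, with earlier results of these data known, and each symbol matched 1 gene. All 10 passed the limit on low counts that left 13052 genes for testing, namely a CPM (counts scaled to library size) above 1 in 4 or more of the 20 mice.

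The experiment asked how the liver responds when lipin 1, a phosphatidic acid phosphatase of triglyceride synthesis, is lost from adipocytes. Poly-A-selected liver RNA was sequenced from male mice on a C57BL/6J background. WT mice were littermates homozygous for the floxed Lpin1 allele without Cre, so the controls carried the floxed alleles too. Adn-Lpin1-/- mice carried the same alleles with Cre under the adiponectin promoter, which acts in adipocytes, so hepatocytes were not targeted. Feeding started at 8 weeks of age, and fat supplied 10% of the kcal in the low-fat diet (LFD) and 60% in the high-fat diet (HFD). Food was withdrawn 4 h before tissue collection. The labels give 16 weeks of feeding, whereas the published methods for these diets give 5 weeks. Each of the 4 groups held 5 mice, and a further library per group, mixed from the RNA of those mice, was kept out of the main tests. Total counts per mouse ran from 36260187 to 45999456 for WT and from 51095146 to 61435897 for Adn-Lpin1-/- on the LFD, and from 54036184 to 62249701 and 57550362 to 81072794 on the HFD. The totals did not overlap between genotypes on the LFD, nor between diets in WT mice. Depth therefore cannot be told apart from genotype on the LFD or from diet in WT mice. The levels below are CPM after TMM normalization. Hepatic Lpin1, which this Cre does not target, was 358 ± 208 CPM for WT and 614 ± 339 CPM for Adn-Lpin1-/- on the LFD, against 274 ± 168 and 331 ± 216 CPM on the HFD, was not called in either genotype comparison and so does not check the genotype labels. The tissue label was met by the marker genes, since Alb, the albumin gene, stood between 55514 and 87678 CPM in the 20 mice.

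Apolipoproteins are the protein part of the particles that carry triglyceride and cholesterol through plasma. Hepatocytes build very low density lipoprotein (VLDL) around a single apolipoprotein B molecule, onto which microsomal triglyceride transfer protein (Mttp) loads lipid in the endoplasmic reticulum, whereas apolipoproteins A-I and A-II form high-density lipoprotein (HDL), whose cholesterol is esterified by Lcat. Smaller exchangeable apolipoproteins then set how fast lipoprotein lipase empties the particles and how receptors clear them.

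Adn-Lpin1-/- livers held more Apoa4 mRNA and less Apob mRNA than WT livers on either diet. Apoa1 was called lower on the HFD, and on the LFD Apoc2 was called higher and Lcat lower, by smaller amounts. These genes kept their direction on the other diet without being called there, and none was called for a dependence on diet. The LFD calls of Apoc2 and Lcat were each lost in 13 of 20 fits without 1 mouse. Of the 10 genes, 4 were called between genotypes on the LFD, where 14.4% of all tested genes were called, and 3 on the HFD, where 18.6% were. Without 1 mouse the members called numbered 2 to 4 for the LFD and 3 to 4 for the HFD, and the calls over all genes went from 1877 to as few as 1210 (without WT LFD mouse 3) and from 2434 to as few as 1475 (without Adn-Lpin1-/- HFD mouse 2). Mttp, Apoe, Apoa2, Apoa5 and Apoc3 were called in neither genotype comparison. A gene was called when the Benjamini-Hochberg adjusted p of the quasi-likelihood test in edgeR, taken over the 13052 genes, was at or below 0.05.

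**Figure D1:**
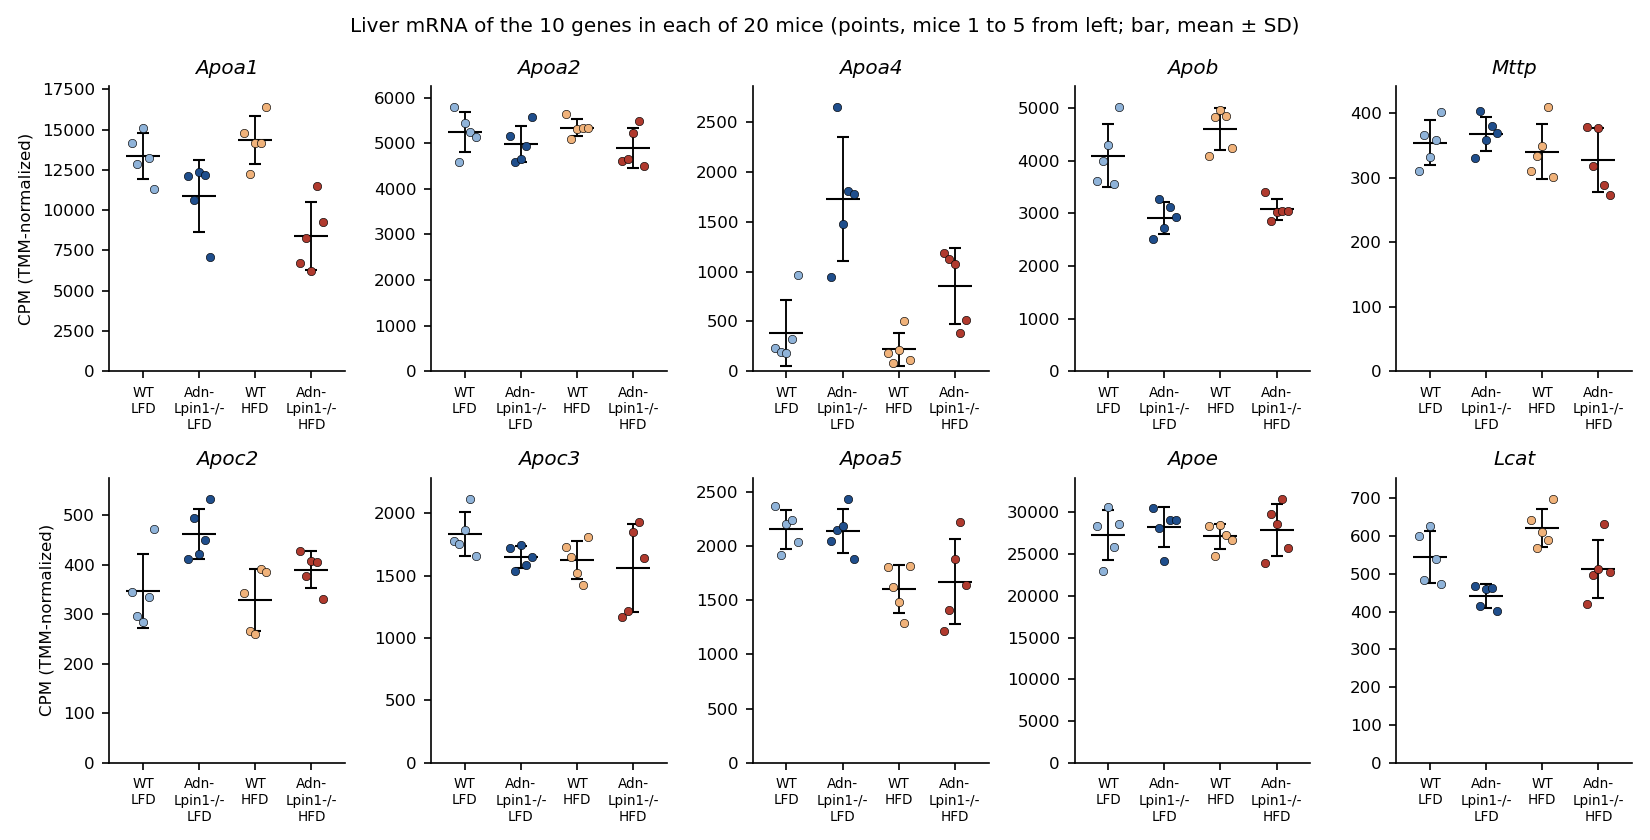
TMM-normalized CPM (vertical axes, each starting at 0) of the 10 genes in the 5 mice of each group (points) with the group mean and SD (bars). Apob in the Adn-Lpin1-/- mice lay below every WT mouse on the same diet, and Apoa4 spread from 87.3 to 2654 CPM over the 20 mice.

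Several of the genes lie side by side on chromosome 9 (GRCm38): Apoa1 (ENSMUSG00000032083, chr9:46228580-46230466), Apoc3 (ENSMUSG00000032081, chr9:46232933-46235636), Apoa4 (ENSMUSG00000032080, chr9:46240696-46243459) and Apoa5 (ENSMUSG00000032079, chr9:46268633-46271919). The 4 span 43.3 kb, and Apoa1 and Apoa4, which changed in opposite directions on the HFD, are 10.2 kb apart. Apoc2 (ENSMUSG00000002992, chr7:19671579-19681423) and Apoe (ENSMUSG00000002985, chr7:19696109-19699166) share chromosome 7. The others stand alone: Apob (ENSMUSG00000020609, chr12:7977648-8016835), Apoa2 (ENSMUSG00000005681, chr1:171225054-171226379), Mttp (ENSMUSG00000028158, chr3:138089855-138143388) and Lcat (ENSMUSG00000035237, chr8:105939551-105943382).

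The stretches just upstream of Apoa1 (chr9:46228380-46228579), Apoa4 (chr9:46240594-46240695) and Apob (chr12:7977427-7977647) are shown because these genes had the largest called genotype differences among the members. They come from the RefSeq promoter windows of GRCm38.p6, plus strand, and stop before the first annotated transcribed base. Capitals mark a match to a searched motif.
Apoa1: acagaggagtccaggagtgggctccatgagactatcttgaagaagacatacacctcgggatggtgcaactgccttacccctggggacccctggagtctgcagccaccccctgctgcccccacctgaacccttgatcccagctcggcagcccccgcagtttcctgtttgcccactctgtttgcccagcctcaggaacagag
Apoa4: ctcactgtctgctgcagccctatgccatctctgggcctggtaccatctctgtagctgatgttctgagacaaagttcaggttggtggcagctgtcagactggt
Apob: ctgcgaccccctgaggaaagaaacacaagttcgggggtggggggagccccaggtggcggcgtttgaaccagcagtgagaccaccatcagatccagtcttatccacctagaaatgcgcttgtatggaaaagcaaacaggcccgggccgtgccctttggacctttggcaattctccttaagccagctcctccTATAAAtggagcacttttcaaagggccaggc

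The motifs searched, on both strands, were AGGTCA (a nuclear receptor core motif), CAAAGTCCA (an HNF4-type site), TATAAA (the TATA box) and TGTTTAC (a FOXA-type site). The Apob stretch held TATAAA, with its first base at -60 from the RefSeq start, and the Apoa1 and Apoa4 stretches held no match. Windows from 250 bases before to 50 bases after a start were at hand for 9 of the 10 genes, 13 windows in all, of which 5 held TATAAA, 2 AGGTCA, 2 TGTTTAC and 0 CAAAGTCCA. Windows of 1 gene can overlap, and 2 of the 5 with TATAAA are Apoa5 windows that hold the same site. Among all 32851 mouse windows the shares were 13.6%, 16.3%, 3.65% and 0.475%. A match describes letters in a window and is no evidence of binding.

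Per kilobase of exon, Apoe was the most abundant member, at 13954 ± 1217 CPM per kb (mean ± SD, n = 20 mice), and ranked 3 among the 13052 genes on this scale. Apoe encodes the ligand through which remnant particles are taken up. Apoa2 at 9525 ± 740 and Apoa1 at 9504 ± 2360 CPM per kb followed, and their order differed by group. Per kb, Apoa2 exceeded Apoa1 in 5 of 5 Adn-Lpin1-/- HFD mice, 1 of 5 in each LFD group and 0 of 5 WT HFD mice. Apoc3 at 1644 ± 221 and Apoa5 at 751 ± 142 CPM per kb came next. Apoa4, Apoc2 and Lcat, at 440 ± 392, 410 ± 80.6 and 395 ± 64.0 CPM per kb over all mice, also changed order with group. Apoa4 averaged 955 CPM per kb beside 496 for Apoc2 and 329 for Lcat in Adn-Lpin1-/- LFD, where it was above both in 5 of 5 mice, but 122 beside 353 and 463 CPM per kb in WT HFD, where it was below both in 5 of 5. In Adn-Lpin1-/- HFD the 3 genes could not be ordered beyond their spread. Apoa4 also exceeded Apoa5 in 3 of 5 Adn-Lpin1-/- LFD and 2 of 5 Adn-Lpin1-/- HFD mice. It lay below Apob in 5 of 5 WT HFD and 4 of 5 WT LFD mice. Apob at 263 ± 58.0 CPM per kb stood above Mttp at 78.8 ± 8.91 CPM per kb in all 20 mice. Together the 10 genes took between 4.72% and 5.67% of all counts in a library.

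**Figure D2:**
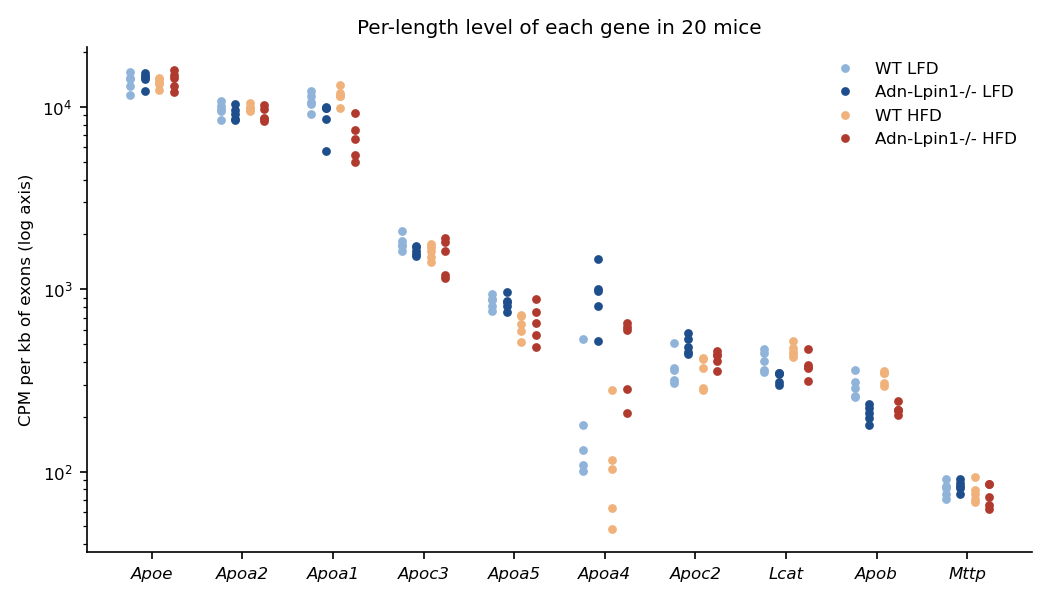
CPM per kilobase of exon on a logarithmic vertical axis for the 10 genes, ordered by mean, in the 20 mice colored by group. Apoe, Apoa2 and Apoa1 form the top and Mttp the bottom, with means of 13954 and 78.8 CPM per kb for Apoe and Mttp, and Apoa4 has the widest spread.

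Apoa1 encodes the principal structural protein of HDL. In WT HFD mice 1 to 5 its level was 14792, 12244, 14178, 14195 and 16402 CPM, and in Adn-Lpin1-/- HFD mice it was 6737, 8290, 6201, 11491 and 9281 CPM. All 5 Adn-Lpin1-/- mice lay below all 5 WT mice, with mouse 4 the nearest. The group means were 14362 ± 1491 and 8400 ± 2118 CPM (SD, n = 5 each), a log2 fold change of -0.77 (SE 0.16, adjusted p = 0.00319, edgeR). On the LFD, WT mice had 14167, 12851, 15116, 13247 and 11327 CPM and Adn-Lpin1-/- mice 12150, 10622, 12373, 12187 and 7085 CPM. The groups overlapped there, mouse 5 of Adn-Lpin1-/- LFD was the lowest, and the log2 difference of -0.29 (SE 0.16) was not called by edgeR (adjusted p = 0.233).

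Whether the Apoa1 difference depended on diet was tested directly. The genotype difference on the HFD minus that on the LFD was -0.48 on the log2 scale (95% interval -0.95 to -0.01), and this dependence was not called by edgeR (adjusted p = 0.687). None of the 13052 genes was called for such a dependence by edgeR, although 938 had an unadjusted p under 0.05, and DESeq2 called 30 and limma-voom with quality weights 0. For Apoa4 the dependence was -0.23 (95% interval -1.67 to 1.22), which turned to 0.33 without WT HFD mouse 4, and for Apob -0.09 (95% interval -0.37 to 0.20) on the log2 scale.

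Apoa2, the other main HDL protein, varied little, from 4507 to 5791 CPM over the 20 mice. Its log2 difference between genotypes was -0.07 on the LFD (95% interval -0.24 to 0.09) and -0.13 on the HFD (95% interval -0.29 to 0.04).

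Apoa4, an apolipoprotein of triglyceride-rich particles and HDL that is made in the intestine and in the mouse liver, had the largest difference among the members. WT LFD mice had 237, 196, 182, 326 and 970 CPM and Adn-Lpin1-/- LFD mice 944, 2654, 1476, 1815 and 1777 CPM. WT mouse 5 alone reached the Adn-Lpin1-/- range, just above mouse 1 of that group. The means were 382 ± 333 and 1733 ± 621 CPM, a 4.53-fold fitted difference (log2 fold change 2.18, SE 0.51, adjusted p = 0.00765, edgeR), which ranked 21 among all tested genes by size of increase. Without WT LFD mouse 5 the log2 fold change was 2.88 (adjusted p = 0.000706, edgeR).

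On the HFD, Apoa4 was 187, 87.3, 211, 507 and 114 CPM in WT mice and 1189, 1129, 1079, 382 and 513 CPM in Adn-Lpin1-/- mice. WT mouse 4 exceeded Adn-Lpin1-/- mouse 4, and the other 4 WT mice lay below every Adn-Lpin1-/- mouse. The means were 221 ± 168 and 858 ± 380 CPM, a 3.88-fold fitted difference (log2 fold change 1.96, SE 0.51, adjusted p = 0.0124, edgeR), which was 2.51 on the log2 scale without WT HFD mouse 4.

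Since Apoa4 is also an intestinal gene, enterocyte markers were read in the same libraries. Of 7 listed markers only Fabp2, a fatty acid binding protein gene, passed the limit on low counts. It stood at 70.3 to 127 CPM and, like Apoa4, rose with genotype on the LFD (log2 0.39, adjusted p = 0.0244, edgeR), whereas on the HFD its log2 difference of 0.20 was not called. Sis, Alpi, Cdx1 and Cdx2 had 0 counts in 19, 18, 17 and 17 of 20 mice and at most 4 counts in any, Lct peaked at 0.157 CPM and Vil1 at 0.542 CPM. The summed mean level of the list, nearly all of it Fabp2, was 90.5 CPM for WT and 118 CPM for Adn-Lpin1-/- on the LFD and 90.0 and 103 CPM on the HFD. Apoa4 shares 632 exon bases with Gm10680 on the opposite strand, a gene with at most 1 count in any library.

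Apob encodes the structural protein of VLDL. WT LFD mice had 3618, 3990, 4308, 3558 and 5020 CPM and Adn-Lpin1-/- LFD mice 2522, 3271, 2726, 3126 and 2928 CPM. On the HFD, WT mice had 4084, 4827, 4961, 4860 and 4248 CPM and Adn-Lpin1-/- mice 3407, 2861, 3022, 3051 and 3038 CPM. On either diet the highest Adn-Lpin1-/- mouse lay below the lowest WT mouse. The fall on the LFD was 1.41-fold, from 4098 ± 597 to 2915 ± 301 CPM (log2 fold change -0.49, SE 0.10, adjusted p = 0.00244, edgeR). On the HFD it was 1.49-fold, from 4596 ± 400 to 3076 ± 200 CPM (log2 fold change -0.58, SE 0.10, adjusted p = 0.000633, edgeR). The two-sided exact permutation p for Apob was 0.00794 on each diet, unadjusted over the 40 computed for the members and the smallest that 5 against 5 mice allow. Groups of 5 that do not overlap always give this value, so it adds nothing to that observation. Genotype groups that did not overlap were found for 2 of 10 members on the LFD (Apob and Lcat), beside 10.1% of all tested genes, and for 2 of 10 on the HFD (Apoa1 and Apob), beside 11.4%.

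Mttp, which lipidates the nascent apolipoprotein B, ranged from 273 to 410 CPM and was not called. Its log2 difference between genotypes was 0.06 on the LFD (95% interval -0.16 to 0.27) and -0.06 on the HFD (95% interval -0.27 to 0.15).

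Apoc2, Apoc3 and Apoa5 act on lipolysis. Apoc2 is the cofactor that activates lipoprotein lipase, Apoc3 inhibits it and slows clearance, and Apoa5 promotes it. Apoc2 in WT LFD mice was 344, 297, 285, 335 and 473 CPM, and in Adn-Lpin1-/- LFD mice 411, 494, 422, 451 and 534 CPM. WT mouse 5 was the only WT mouse within the Adn-Lpin1-/- range. The log2 fold change was 0.41 (SE 0.14, adjusted p = 0.0469, edgeR), a call close to the threshold that was lost in 13 of 20 fits without 1 mouse (log2 0.35 to 0.55) and after removal of the trend with GC content (log2 0.33, adjusted p = 0.115, edgeR). On the HFD the means were 329 ± 63.3 and 390 ± 37.7 CPM, and the log2 difference of 0.24 was not called (SE 0.14, adjusted p = 0.219, edgeR). Apoc2 shares 112 exon bases with Apoc4 on the same strand, so its count is uncertain there.

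Apoc3 ranged from 1168 to 2117 CPM, and its log2 difference between genotypes was -0.15 on the LFD (95% interval -0.40 to 0.10) and -0.06 on the HFD (95% interval -0.31 to 0.19). In Adn-Lpin1-/- HFD mice 1 and 2 had 1168 and 1214 CPM, the lowest of all 20, and mice 3 to 5 had 1848, 1931 and 1638 CPM. Apoa5 differed between genotypes by -0.01 on the log2 scale on the LFD (95% interval -0.29 to 0.27) and 0.06 on the HFD (95% interval -0.21 to 0.34).

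Apoe stayed within 22977 to 31637 CPM over the 20 mice. Its log2 difference between genotypes was 0.05 on the LFD (95% interval -0.15 to 0.25) and 0.04 on the HFD (95% interval -0.16 to 0.24).

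Lcat, the plasma enzyme that esterifies cholesterol on HDL, was 600, 484, 627, 540 and 474 CPM in WT LFD mice and 467, 415, 460, 464 and 401 CPM in Adn-Lpin1-/- LFD mice. The groups did not overlap, although the nearest mice, WT mouse 5 and Adn-Lpin1-/- mouse 1, lay close together. The log2 fold change was -0.30 (SE 0.10, adjusted p = 0.0457, edgeR), a call that was lost in 13 of 20 fits without 1 mouse (log2 -0.35 to -0.25). On the HFD, WT mice had 642, 569, 610, 589 and 699 CPM and Adn-Lpin1-/- mice 419, 497, 513, 633 and 504 CPM, where mouse 4 lay within the WT range. The log2 difference of -0.28 missed the threshold (SE 0.10, adjusted p = 0.0561, edgeR), and without that mouse it was -0.37 (adjusted p = 0.00884, edgeR).

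With both diets averaged, Apoa4 (log2 2.07), Apob (-0.54), Apoa1 (-0.53), Lcat (-0.29) and Apoc2 (0.33) were called between genotypes, 5 of 10 members beside 32.9% of all tested genes. The largest adjusted p among them was that of Apoc2, 0.0127 in edgeR.

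**Figure D3:**
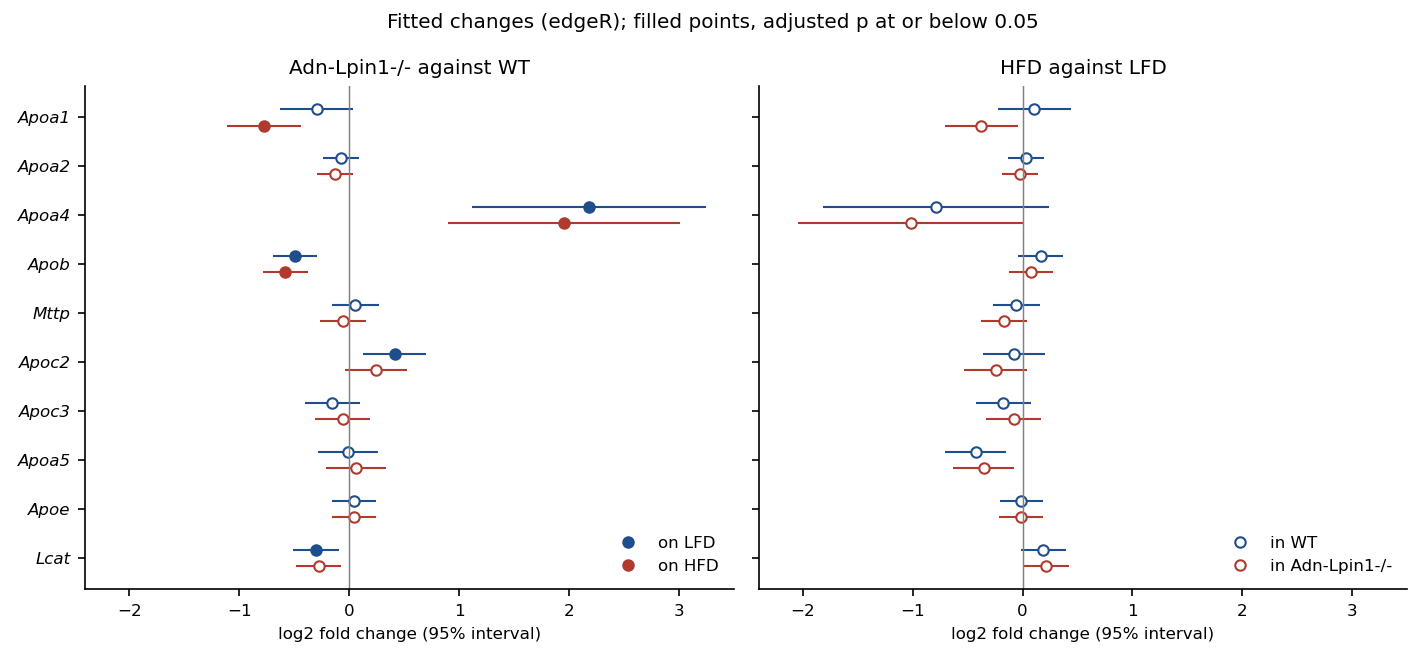
Fitted log2 fold changes with 95% intervals (horizontal axis) for the 10 genes, Adn-Lpin1-/- against WT on each diet (left) and HFD against LFD in each genotype (right). Filled points were called by edgeR (adjusted p at or below 0.05), which on the left are Apoa4 and Apob on both diets, Apoa1 on the HFD and Apoc2 and Lcat on the LFD, and on the right none.

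Within a genotype no member was called between diets by edgeR, 0 of 10 beside 1.1% of all tested genes in WT and 0 of 10 beside 2.46% in Adn-Lpin1-/- mice. Both shares rest on few calls and moved with single mice, from 144 genes to between 55 and 289 in WT and from 321 to between 123 and 378 in Adn-Lpin1-/- mice. At an unadjusted p under 0.05 there were 1 member in WT (Apoa5) and 3 in Adn-Lpin1-/- mice (Apoa1, Apoa5 and Lcat), beside 15.8% and 16.1% of all tested genes. In WT mice Apoa5 was 2366, 1919, 2204, 2238 and 2035 CPM on the LFD and 1804, 1626, 1479, 1286 and 1820 CPM on the HFD, and these groups did not overlap. The log2 difference was -0.43 (SE 0.13, unadjusted p = 0.00435, adjusted p = 0.122, edgeR), and DESeq2 called it (adjusted p = 0.0466). Apoa5 was the only member whose WT diet groups did not overlap, 1 of 10 beside 3.73% of all tested genes, and in Adn-Lpin1-/- mice 0 of 10 did so beside 4.06%.

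In Adn-Lpin1-/- mice Apoa5 was 2045, 2146, 2180, 2437 and 1881 CPM on the LFD and 1212, 1406, 1881, 2221 and 1641 CPM on the HFD. These groups overlapped, and the log2 difference was -0.35 (SE 0.13, adjusted p = 0.176, edgeR). With both genotypes averaged, Apoa5 fell on the HFD (log2 -0.39, SE 0.09, adjusted p = 0.0154, edgeR), the 1 member of 10 called beside 7.26% of all genes. For Apoa4 the diet difference was -0.79 on the log2 scale in WT (95% interval -1.81 to 0.24), but -0.09 without WT LFD mouse 5, and -1.01 in Adn-Lpin1-/- mice (95% interval -2.04 to 0.02). Apoa1 differed by 0.11 in WT (95% interval -0.23 to 0.44) and -0.37 in Adn-Lpin1-/- mice (95% interval -0.71 to -0.04).

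The genes around the members were read from 5 lists chosen for their known roles, with earlier results of these data known. Each list's counts are to be read beside the 14.4% of all tested genes called on the LFD and the 18.6% called on the HFD. Among 10 tested other apolipoproteins, 3 fell and 0 rose with genotype on each diet. The median log2 difference was -0.22 on the LFD and -0.19 on the HFD, beside 0.01 and 0.00 for all genes. With both diets averaged, 6 fell and 1 rose, beside 32.9% of all tested genes called. The gene that rose was Saa2 (log2 0.77, adjusted p = 0.0194, edgeR). Apom, the HDL protein that carries sphingosine-1-phosphate, fell without overlap from 171 ± 19.6 to 108 ± 10.8 CPM on the LFD (log2 -0.65, SE 0.11, adjusted p = 0.000644, edgeR) and from 165 ± 22.9 to 90.7 ± 13.96 CPM on the HFD (log2 -0.86, SE 0.11, adjusted p = 4.95e-05, edgeR). It was called in every fit without 1 mouse. Apoh, a phospholipid-binding plasma glycoprotein, fell on both diets (log2 -0.27 and -0.26), Apon on the LFD (log2 -0.28) and Apoc4 on the HFD (log2 -0.27), with calls lost in 1 and 2 of 20 fits without 1 mouse for Apoh, 8 for Apon and 11 for Apoc4.

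Of 24 genes for VLDL assembly and secretory export, none rose, 2 fell on the LFD and 1 fell on the HFD. Of all tested genes 14.4% and 18.6% were called. Their median log2 differences were -0.07 and -0.05. Aadac, a lipolytic enzyme of the endoplasmic reticulum, and the carboxylesterase Ces3a fell on the LFD (log2 -0.36 and -0.36), and Pla2g12b, which is needed for triglyceride loading of VLDL, fell on the HFD (log2 -0.28). These calls were lost in 4, 7 and 3 of 20 fits without 1 mouse. The genes for export of large cargo from the endoplasmic reticulum in this list, such as Sar1b, Mia2, Mia3 and Surf4, were called in neither comparison.

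Of 10 genes for HDL formation and remodelling, 3 fell and 1 rose on the LFD, and 1 fell and 1 rose on the HFD, with medians of -0.12 and -0.09. Abca1, the transporter that lipidates apolipoprotein A-I, fell without overlap from 170 ± 12.7 to 125 ± 12.8 CPM on the LFD (log2 -0.44, SE 0.08, adjusted p = 0.00124, edgeR). On the HFD it fell from 195 ± 17.1 to 129 ± 9.88 CPM (log2 -0.60, SE 0.08, adjusted p = 7.40e-05, edgeR), again without overlap. Pon1, the HDL-borne paraoxonase, and Lipc, hepatic lipase, fell on the LFD (log2 -0.40 and -0.40), with the call of Lipc lost in 2 of 20 fits without 1 mouse. Pltp, the phospholipid transfer protein gene, rose on the LFD from 42.4 ± 21.6 to 107 ± 26.9 CPM (log2 1.34, SE 0.44, adjusted p = 0.0456, edgeR), and Abcg1, a cholesterol exporter, rose on the HFD (log2 0.63). Both of these calls were close to the threshold and were lost in 12 and 13 of 20 fits without 1 mouse.

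Of 16 genes for lipoprotein receptors and lipolysis, 1 rose on the LFD, and 2 rose and 2 fell on the HFD, beside 14.4% and 18.6% of all genes, with medians of 0.01 and 0.04. Mylip, a ubiquitin ligase that targets the LDL receptor for degradation, rose on both diets (log2 0.66 and 0.61). Gpihbp1, the endothelial anchor of lipoprotein lipase, rose on the HFD (log2 0.59), while Lsr, a lipoprotein receptor, was among those that fell there (log2 -0.32). The calls of Gpihbp1 and Lsr were lost in 10 and 4 of 20 fits without 1 mouse, and those of Mylip in 2 on the LFD and 3 on the HFD.

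Of 25 transcriptional regulators, none rose, while 3 fell on the LFD and 4 on the HFD, beside 14.4% and 18.6% of all genes, with medians of -0.15 and -0.10. Nr1d2, a clock-linked repressor, fell on both diets (log2 -0.43 and -0.36), and so did Nr5a2, a nuclear receptor active in cholesterol and bile acid genes (log2 -0.36 and -0.30). Foxa3 fell on the LFD (log2 -0.69), and Rora and Creb3l3, a liver transcription factor known to act on Apoa4, fell on the HFD (log2 -0.34 and -0.21). The HFD calls of Nr5a2, Creb3l3 and Rora were lost in 7, 6 and 4 of 20 fits without 1 mouse, that of Foxa3 in 2 and that of Nr5a2 on the LFD in 1, while those of Nr1d2 were kept in all. Of the 11 alternatives, 6 lost the HFD call of Nr5a2 and 2 that of Nr1d2. Hnf4a, a regulator of many apolipoprotein genes, differed by -0.03 and -0.18 on the log2 scale and was not called.

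Between diets, no gene of the 5 lists was called in WT mice by edgeR, where 1.1% of all tested genes were. The largest difference of each list there was that of Vldlr (log2 1.23), Pltp (-0.82), Nr0b2 (-0.80), Saa1 (0.75) and Sort1 (0.45). Vldlr, the VLDL receptor gene, was called without WT LFD mouse 5, and Nr0b2 with limma-voom. In Adn-Lpin1-/- mice, where 2.46% of all tested genes were called, Saa4, an apolipoprotein of the serum amyloid A family, rose on the HFD (log2 0.89, adjusted p = 0.00691, edgeR) and Pltp fell (log2 -2.08, adjusted p = 0.0177, edgeR), from 107 ± 26.9 to 25.3 ± 12.5 CPM. Lrp1, a remnant receptor, rose there too (log2 0.30, adjusted p = 0.0465, edgeR), a call lost in 18 of 20 fits without 1 mouse. The VLDL assembly list and the transcriptional regulators held no called gene there, with Ces1g (log2 0.43) and Foxa2 (log2 0.66) differing most. With genotypes averaged, beside 7.26% of all genes, Saa4 (log2 0.73), Ces1g (0.34), Lrp1 (0.23), Vldlr (1.14), Nr5a2 (0.24) and Rxra (0.20) rose on the HFD. Pltp (-1.45) and Ppargc1a (-0.37) fell. The calls of Ces1g, Vldlr, Nr5a2 and Ppargc1a were close to the threshold (adjusted p = 0.0389, 0.0396, 0.0439 and 0.0497, edgeR). The stability of these averaged calls without 1 mouse is not reported here.

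**Figure D4:**
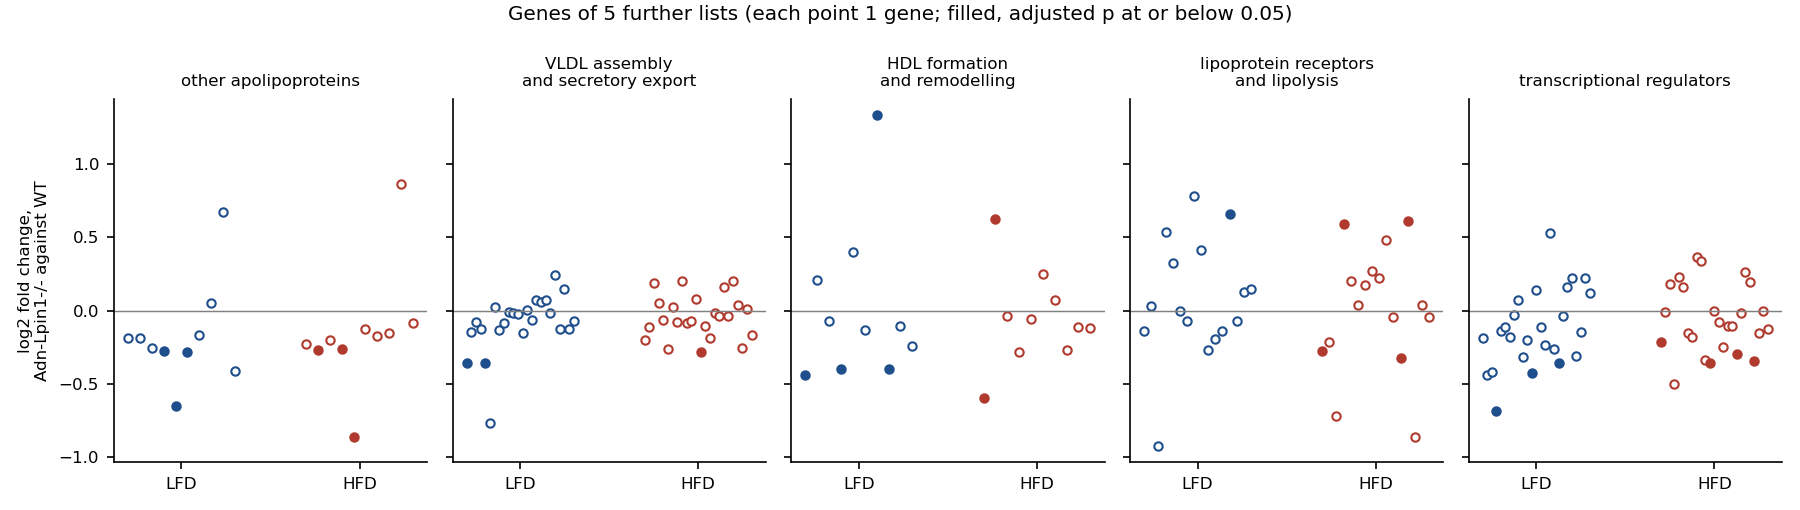
Log2 fold change of Adn-Lpin1-/- against WT (vertical axis) for each tested gene of the 5 lists, on the LFD and on the HFD, with called genes filled. The called genes lie below 0 except Mylip on both diets, Pltp on the LFD and Abcg1 and Gpihbp1 on the HFD.

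Cell type markers moved with genotype as well. In bulk liver, fewer hepatocytes and less RNA per hepatocyte cannot be told apart. The summed level of 10 hepatocyte markers, of which Alb was the most abundant, none was at 0 and Hnf4a is also in the list of regulators, was 122226 ± 3189 CPM for WT and 103804 ± 10637 CPM for Adn-Lpin1-/- on the LFD, and 124552 ± 10435 and 98229 ± 11798 CPM on the HFD. On the LFD the sums did not overlap between genotypes. Beside the 14.4% (LFD) and 18.6% (HFD) of all genes called, 2 of the 10 fell on the LFD (Serpina1a and Serpina1b) and 7 on the HFD, among them Alb (log2 -0.34) and Ahsg (log2 -0.54). Of the others, Ttr, the transthyretin gene, differed by 0.04 and -0.01 on the log2 scale and Tat, tyrosine aminotransferase, by 0.53 (SE 0.41) and 0.23 (SE 0.41), neither of them called, and Alb made up most of the sum.

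Single mice showed the same order in some genes and not in others. Mouse 5 of Adn-Lpin1-/- LFD, the lowest for Apoa1 and Lcat on that diet, also had the lowest hepatocyte sum of the 20 mice, 86087 CPM. Mouse 5 of WT LFD had the lowest Apoa1 and Lcat of its group, 11327 and 474 CPM, but the highest hepatocyte sum. That sum was 125627 CPM, beside 117629 to 124205 CPM in the other WT LFD mice. Mouse 4 of Adn-Lpin1-/- HFD, the highest of its group for Apoa1 and Lcat and the lowest for Apoa4, had the highest hepatocyte sum of its group, 119210 CPM beside 91181 to 94595 CPM in the others. Its Apob level, 3051 CPM, lay among those of its group. Without this mouse the log2 fold change of Apoa1 on the HFD was -0.92 (adjusted p = 0.000628, edgeR), that of Apoa4 2.13 and that of Apob -0.59.

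**Figure D5:**
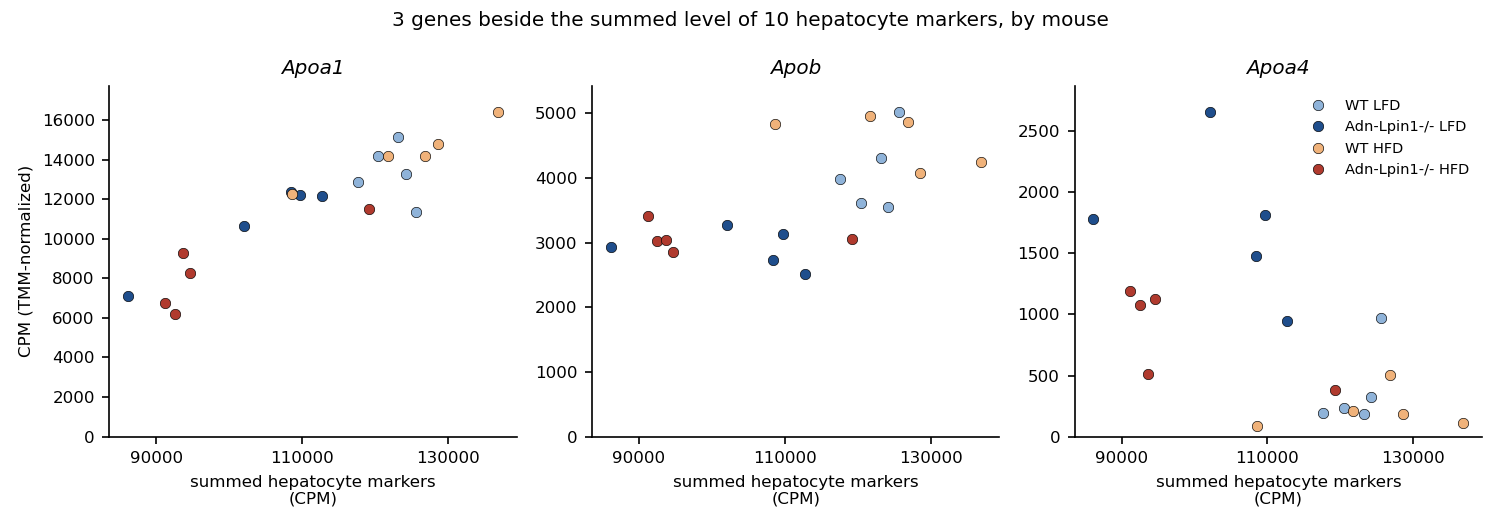
Level of Apoa1, Apob and Apoa4 (vertical axes, TMM-normalized CPM) beside the summed CPM of 10 hepatocyte markers (horizontal axis) in each of the 20 mice, colored by group. The Adn-Lpin1-/- HFD mouse with a sum of 119210 CPM had 11491 CPM of Apoa1, the highest of its group, and 3051 CPM of Apob.

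Markers of several other cell types were higher in Adn-Lpin1-/- livers, and their counts stand beside the same 14.4% and 18.6% of all genes. Of 10 Kupffer cell and macrophage markers 0 were called on the LFD and 7 rose on the HFD. The sum of the 10, with Clec4f the most abundant, was 223 ± 20.4 CPM in WT and 371 ± 131 CPM in Adn-Lpin1-/- mice on the HFD (235 ± 61.5 and 277 ± 77.9 CPM on the LFD). Lipid-associated macrophage markers rose for 2 of 7 genes on the LFD (Gpnmb and Cd63), with sums of 62.2 ± 10.3 and 87.6 ± 20.5 CPM. On the HFD 3 of 7 rose (Gpnmb, Mmp12 and Cd63), with sums of 43.3 ± 7.49 and 65.5 ± 16.0 CPM. Gpnmb and Mmp12 lay near the limit on low counts and make up little of these sums. Gpnmb averaged 0.175 CPM for WT and 0.928 CPM for Adn-Lpin1-/- on the LFD, and 0.147 and 1.37 CPM on the HFD. Mmp12 averaged 0.270 and 1.70 CPM on the HFD. Spp1, the most abundant gene of the list, was called on neither diet. Lpl, the lipoprotein lipase gene, is in this list and in that of receptors and lipolysis. Hepatic stellate cell markers rose for 4 of 8 genes on the LFD, with sums of 165 ± 39.7 and 291 ± 96.6 CPM. On the HFD 3 of 8 rose (Col1a1, Col3a1 and Pdgfrb), with sums of 215 ± 32.2 and 307 ± 107 CPM. Dcn, the most abundant gene of the list, was called on the LFD only. Sinusoidal endothelial markers rose for 2 of 6 genes on the LFD (Lyve1 and Pecam1), with sums of 99.0 ± 19.6 and 131 ± 36.7 CPM. On the HFD 4 of 6 rose, with sums of 103 ± 16.9 and 149 ± 7.91 CPM. Stab2, the most abundant gene of the list, was called on the HFD only. On neither diet was any of 5 tested cholangiocyte markers called, nor any of 6 erythroid markers. The most abundant were Spp1, which the lipid-associated macrophage list also holds, and Hba-a1. The cholangiocyte sums were 36.0 ± 11.6 CPM for WT and 58.2 ± 19.4 CPM for Adn-Lpin1-/- on the LFD, against 30.6 ± 10.1 and 42.2 ± 11.7 CPM on the HFD. The erythroid sums were 1196 ± 872 and 1196 ± 839 CPM on the LFD, against 1459 ± 580 and 1258 ± 950 CPM on the HFD. Among 5 adipocyte markers Cfd alone passed the limit on low counts and rose on both diets, with list sums of 1.77 ± 1.91 and 11.4 ± 14.1 CPM on the LFD and 6.09 ± 6.31 and 81.9 ± 81.2 CPM on the HFD, whereas Plin1 and Lep had at most 5 and 4 counts in any mouse and Adipoq peaked at 4.32 CPM. The part of these shifts in the differences of the 10 genes was not tested.

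The tested genes whose log2 CPM followed each member most closely over the 20 mice are named by Pearson's r, as a description across mice that share groups and libraries. For Apoa4 they were Cntnap1 (r = 0.94), Anxa5 (r = 0.92) and Cgref1 (r = 0.91). For Apob they included Gabpa (r = 0.97) and Pds5b (r = 0.95). Apoa1 was most like Dlgap1 (r = 0.93), Urad (r = 0.93) and Ahsg (r = 0.93), the last a hepatocyte marker used above. Lcat was most like Ces1c (r = 0.94), Msrb1 (r = 0.93) and Etfb (r = 0.92). Apoc2 was most like Atp10d (r = 0.84), 2010003K11Rik (r = 0.83) and Fabp2 (r = 0.82). Fabp2 is the only gene of the enterocyte list above that passed the limit on low counts. For Mttp the nearest were Gpd2 (r = 0.88), Scd2 (r = 0.87) and Scd3 (r = 0.86), and for Apoa5 they were Napa (r = 0.85), Gm17080 (r = 0.85) and Zpr1 (r = 0.84). For Apoc3 they were Atp5j (r = 0.86), Atp5j2 (r = 0.86) and Ccar1 (r = 0.86). Apoa2 was nearest to Ndufa7 (r = 0.84), Ddrgk1 (r = 0.79) and Mrpl14 (r = 0.77), and Apoe to Nudt14 (r = 0.83), Atp5d (r = 0.79) and Stub1 (r = 0.76). In the pooled libraries, on the scale of CPM of total counts, 38 of 40 member levels lay within the range of the 5 mice of the same group, the exceptions being Apoe in both HFD pools.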

How the data were processed

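Liver RNA of 20 mice was sequenced, and of 4 pools that mix mice 1 to 5 of a group and so are not independent samples. The authors aligned reads with STAR 2.5.1a to GRCm38 with Ensembl release 76 genes and counted uniquely aligned, unambiguous reads with featureCounts 1.4.6-p5 (use of strand is not given in the sources used here). The deposited files hold a count per gene with the authors' CPM and RPKM, which followed from count, total and length, so the counts were tested. After removal of 355 rRNA genes, 13052 genes above 1 CPM in 4 or more libraries entered edgeR 4.0.16 (TMM, quasi-likelihood test, group means over 20 mice, Benjamini-Hochberg). Library totals limit the precision of each value; nothing states whether replicates came from separate litters or batches, and p-values measure the spread between these mice. Alternatives used DESeq2 1.42.0, limma 3.58.1, other scalings and filters, a replicate block, a GC correction and leaving out each mouse. Methods were tested on simulated data. The members and the lists of pathway genes and markers were chosen with earlier results of these data known. Named were all members, of each list the called genes (at most 4 per comparison, by size; otherwise the largest difference) and the 3 genes nearest in pattern, apart from a few that are not reported here. Coordinates and exon overlaps came from GENCODE M21. Same-numbered mice did not deviate together.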

Additional observations from a re-analysis of the deposited data

Results flagged for a closer look

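Apoa4 in mouse 5 of WT LFD, at 970 CPM, stood apart from the other 4 mice of its group, which lay between 182 and 326 CPM. Its gap to the nearest mouse was 0.817 of the group's whole range, beyond Dixon's 95% limit for 5 samples. It was the only such value among the 40 sets of 5 mice read for the 10 genes. Chance gives about 1 such value in 20 sets, so 1 in 40 is no more than chance gives. The same mouse had the highest Apob (5020 CPM), Apoc2 (473 CPM) and Mttp (402 CPM) of its group and the lowest Apoa1 (11327 CPM), Apoc3 (1655 CPM) and Lcat (474 CPM). The cause was not tested.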

How the results depend on the processing

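Apoa4 and Apob on both diets and Apoa1 on the HFD kept their direction and their calls in all 11 alternatives and all 20 fits without 1 mouse. Of the 10 genes, 2 to 4 were called on the LFD without 1 mouse and 3 to 4 on the HFD. The Apoc2 call on the LFD was lost without WT LFD mice 1 to 4, Adn-Lpin1-/- LFD mice 2 to 5, WT HFD mouse 1 or Adn-Lpin1-/- HFD mice 1 to 4 (adjusted p up to 0.128, edgeR), and in 5 alternatives. The Lcat call was lost without WT LFD mice 1, 3 or 4, Adn-Lpin1-/- LFD mice 2 to 5, WT HFD mice 1, 3 or 4 or Adn-Lpin1-/- HFD mice 2, 3 or 5 (adjusted p up to 0.128, edgeR), and in 3 alternatives, while Lcat on the HFD became called in 6 alternatives. Without a limit on low counts 2 members were called on the LFD. With both diets averaged, the Apoc2 call between genotypes was lost in 1 alternative, and Apoa2, Apoc3 and Apoe each became called in 1. Leaving out 1 mouse gave 0 to 1 calls for diet in Adn-Lpin1-/- mice (Apoa5 without Adn-Lpin1-/- HFD mouse 4) and 1 to 2 for diet averaged over genotypes (Apoa4 added without WT HFD mouse 4, Lcat without Adn-Lpin1-/- HFD mouse 1). Adding the pools, which hold RNA of the same mice, to limma-voom with quality weights made Apoa1 called on the LFD (log2 -0.32, adjusted p = 0.0115) and gave 6 calls by genotype on the HFD, 2 for diet in WT, 3 for diet in Adn-Lpin1-/-, 6 for diet averaged and 1 for the dependence on diet (Apoa1). Calls over all genes were 1877 with edgeR, 2217 with limma-voom and 4163 with limma-voom and the pools on the LFD, and 2434, 2447 and 4740 in that order on the HFD. DESeq2's test and limma-voom each called 1 member for diet in WT, and DESeq2 and total counts without TMM each 2 for diet averaged. Over all genes, DESeq2 called 400 and limma-voom 670 for diet in WT beside 144 with edgeR, and 72 when only those groups were fitted. Without 1 mouse the calls over all genes moved by over 1.5 times in 4 comparisons. They were 1210 by genotype on the LFD without WT LFD mouse 3 and 1475 on the HFD without Adn-Lpin1-/- HFD mouse 2. For diet in WT they were 55 to 95 without WT LFD mice 1, 2 or 4 or WT HFD mice 1 to 4, and 289 without WT LFD mouse 5, and for diet in Adn-Lpin1-/- mice 123 to 211, beside 321, without LFD mice 2 to 4 or HFD mice 1, 2 or 5. The fits of single genes of the pathway lists were added after the data were seen, and no direction changed in them. Of the 11 alternatives, 6 lost the calls of Apoc4, Gpihbp1 and Nr5a2 on the HFD, 5 those of Abcg1 on the HFD and Lrp1 between diets, 4 those of Apon, Aadac and Pltp on the LFD and Rora on the HFD, 3 those of Ces3a, Mylip and Nr5a2 on the LFD, 2 those of Pon1 on the LFD and Apoh, Pla2g12b, Creb3l3 and Nr1d2 on the HFD, and 1 those of Apoh on the LFD and Mylip and Lsr on the HFD. Apom and Abca1 on both diets, Lipc, Foxa3 and Nr1d2 on the LFD and Saa4 and Pltp between diets in Adn-Lpin1-/- mice lost none.

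Scaling by total counts moved the median of all genes between genotypes to 0.10 on the LFD and 0.13 on the HFD. Some small differences changed sign. With total counts, values of opposite sign were Apoa2 0.022 and Apoa5 0.084 for genotype on the LFD, Apoc3 0.062 and Mttp 0.073 for genotype on the HFD, Apoe 0.011 for diet in WT, Apoa2 0.024 and Apoe 0.036 for diet in Adn-Lpin1-/- mice. With the pools, values of opposite sign were Apoe -0.022 for genotype on the LFD, Apoa5 -0.021 and Apoe -0.060 for genotype on the HFD, Apoa2 0.00098 for diet in Adn-Lpin1-/- mice. With the GC trend removed, values of opposite sign were Apoe -0.047 for genotype on the LFD, Apoa5 -0.033 and Apoe -0.084 for genotype on the HFD, Apoe 0.017 for diet in WT. With the GC trend removed and the replicate block, values of opposite sign were Apoe -0.044 for genotype on the LFD, Apoa5 -0.055 and Apoe -0.084 for genotype on the HFD, Apoe 0.019 for diet in WT, Lcat -0.0013 for the dependence on diet. With limma-voom, values of opposite sign were Apoe 0.016 for diet in WT. Without a limit on low counts, values of opposite sign were Apoe 0.0068 for diet in WT. None of these was called. Without 1 mouse, ranges that crossed 0 were for genotype on the LFD Apoa5 -0.061 to 0.033, Apoe -0.0069 to 0.098. They were for genotype on the HFD Apoa5 -0.072 to 0.16, Apoc3 -0.16 to 0.029, Apoe -0.016 to 0.094, Mttp -0.11 to 0.0076. They were for diet in WT Apoa2 -0.013 to 0.068, Apoc2 -0.15 to 0.063, Apoe -0.061 to 0.034. They were for diet in Adn-Lpin1-/- mice Apoa2 -0.077 to 0.018, Apoc3 -0.18 to 0.0085, Apoe -0.071 to 0.037. They were for the dependence on diet Apoa4 -0.93 to 0.33, Lcat -0.071 to 0.091.

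The replicate block, for numbers that name mice and do not pair them (median r of same-numbered mice -0.011, 6 of 30 pairs over 0.1), left 3 members called on the LFD, with Lcat at log2 -0.30 as without it and adjusted p = 0.0622 in edgeR, and 1532 genes beside 1877, and called 90 genes for diet in WT and 214 in Adn-Lpin1-/- mice beside 144 and 321. It changed no other call of a member, and of the named genes of the lists those of Apon, Aadac, Ces3a, Pltp and Mylip on the LFD, Apoc4, Gpihbp1, Nr5a2 and Rora on the HFD and Lrp1 between diets were lost. Depth limits the members little, with at least 4797 counts for each in every mouse, and the calls near the threshold rest on 5 mice a group.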
